A study of Mus musculus with 11 samples.

Results

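The genes described here make cholesterol and fatty acids. They are 34 genes chosen by symbol, 23 on the sterol branch and 11 on the fatty acid branch. The count tables hold 23284 symbols, and all 34 genes were found among them. The genes were chosen with earlier results of these data known, so their shares beside those of all genes are descriptions, not tests. The cells were 266-6, a mouse pancreatic acinar cell line, so every group is the same line and none is tissue. The 4 groups of libraries formed a layout of siRNA by EGF. The control group (labelled siCtrl, 2 libraries) received the non-targeting siRNA NT5 and the vehicle, 0.1% BSA. The EGF group (siCtrl_EGF, 3 libraries) received NT5 and epidermal growth factor at 40 ng/ml for 8 h. The siRNA group (siArid1a, 3 libraries) received Arid1a siRNAs at 25 nM and the vehicle, and the combined group (siArid1a_EGF, 3 libraries) received Arid1a siRNAs and EGF. All 4 groups carried an siRNA for 48 h and were kept without serum overnight before EGF or vehicle was added, so the control group is itself transfected and starved. The labels record a concentration for the Arid1a siRNAs only, do not give their sequences or number, and do not say whether the replicates of a group were separate cultures. The p-values below therefore measure the spread between these libraries, which may be technical.

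Cholesterol is built from acetyl-CoA by way of mevalonate, isoprenoid diphosphates, squalene and lanosterol. Fatty acids are built from the same acetyl-CoA by way of malonyl-CoA and are then elongated, desaturated and esterified. Both routes are switched on by the transcription factors SREBP-1 and SREBP-2, which Scap carries out of the endoplasmic reticulum when sterols are scarce and which the Insig proteins hold back when sterols are plentiful. SREBPs bind DNA together with partners such as NF-Y, whose site is the CCAAT box. ARID1A is a subunit of the SWI/SNF complexes that remodel chromatin, and EGF signals through its receptor to ERK and AKT.

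Counted reads ranged from 14059719 to 19773007 per control library, 13547278 to 16796787 with EGF, 10279763 to 15710575 with Arid1a siRNAs and 11947581 to 14143225 with both. Levels are given as CPM, reads of a gene per 1000000 reads of the library, with the library total multiplied by its TMM scaling factor, and every library's value is in replicate order. Arid1a itself stood at 292 and 399.9 CPM in the control libraries, 308, 263 and 300.2 with EGF, 151, 157 and 127 with Arid1a siRNAs and 145, 122 and 152 with both. The libraries with Arid1a siRNAs held less Arid1a RNA than those without, with a change of -1.25 ± 0.13 on the log2 scale (± SE throughout) without EGF and -1.06 ± 0.12 with EGF. Dusp6, a phosphatase induced by ERK, rose with EGF by 3.08 ± 0.088 with control siRNA and 2.15 ± 0.077 with Arid1a siRNAs. Of the defining acinar markers, Ctrb1 (11278 to 14335 CPM), Cpa1 (533 to 872) and Ptf1a (139 to 215) were high, while Amy2a5 had no read in any library. Summed over 17 acinar markers, levels were 17505 to 19594 CPM in control libraries and 15379 to 16636 with EGF. They were 17916 to 21415 with Arid1a siRNAs and 16816 to 18618 with both, and most of the sum was Ctrb1. Of the 16 acinar markers tested, EGF with control siRNA lowered 8 (50%, beside 18.8% of all genes) and raised 3 (18.8%, beside 16.8%). The siRNAs without EGF raised 8 (50%, beside 18.8%) and lowered 4 (25%, beside 20.1%). Most markers of other cell types were near 0 (Ins1, Ins2, Sst, Lum, Cd3e and Cdh5 at 0 in every library). Those that were not include Chga (626 to 1158 CPM), Pdgfrb (269 to 321), Sox9 (38.6 to 105) and Onecut1 (24.1 to 89.5). Adipocyte markers, which stand for cells rich in lipid synthesis, summed to at most 0.933 CPM. In bulk RNA a change in the number of cells of a kind and a change in RNA per cell cannot be told apart.

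Summed over its 23 genes, the sterol branch took 5788 to 6349 CPM in the control libraries, 7303 to 7664 with EGF, 4488 to 4871 with Arid1a siRNAs and 5708 to 5898 with both. The EGF libraries lay above and the siRNA libraries below the control libraries with no overlap, and the combined libraries overlapped the control range. The 11 genes of the fatty acid branch summed to 7795 to 9520 CPM in the control libraries, 9666 to 10705 with EGF, 7063 to 7675 with Arid1a siRNAs and 8339 to 9315 with both. There too the EGF libraries were highest and the siRNA libraries lowest, but the control libraries spanned the combined ones. These sums lean on a few abundant genes, above all Scd2. Markers of other cell types moved too. The 9 ductal markers summed to 107 to 145 CPM in the control libraries and 191 to 217 with EGF. Their sum was 85.5 to 95.2 with Arid1a siRNAs and 117 to 131 with both, highest and lowest in the same groups as the sterol sum. Most of it was Sox9 (38.6 to 105 CPM) and Onecut1 (24.1 to 89.5), with Krt19 at no more than 2.15 CPM and Cftr at no more than 0.507. The ductal markers did not move as a set. Of the 8 tested, EGF with control siRNA raised 3 (37.5%, beside 16.8% of all genes) and lowered 1 (12.5%, beside 18.8%). The siRNAs without EGF raised 1 (12.5%, beside 18.8%) and lowered 2 (25%, beside 20.1%). The 9 islet markers, nearly all of it Chga, summed to 703 to 753 CPM in control libraries and 1117 to 1161 with EGF. With Arid1a siRNAs they summed to 628 to 769 and with both to 796 to 841. The part of these markers, and of the acinar ones, in the lipid gene changes was not tested.

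**Figure D1:**
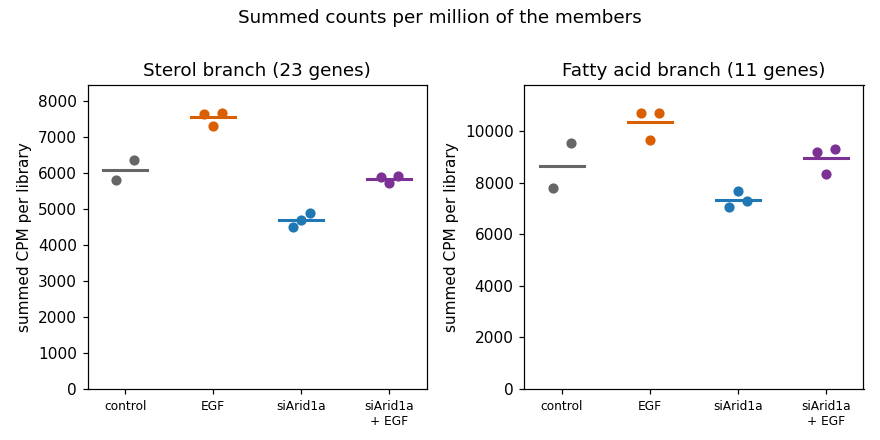
Summed CPM of the 23 sterol genes (left) and the 11 fatty acid genes (right) in each library; points are libraries, lines are group means and the axes start at 0. EGF libraries are highest and Arid1a siRNA libraries lowest in both panels, and the combined sterol sums (5708 to 5898) overlap the control sums (5788 to 6349).

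Levels of different genes can be compared only per length of transcript, which the deposited FPKM values allow for the 9 libraries of the EGF, siRNA and combined groups. Scd2, a stearoyl-CoA desaturase, had the highest mean level in each of the 3 groups (907 ± 59.6 FPKM with EGF, 594 ± 24.5 with Arid1a siRNAs and 709 ± 45.0 with both, SD, n = 3 here and below). The next ranks changed with the group. With EGF they were Sqle at 366 ± 7.38 and Insig1 at 364 ± 6.51, which did not differ beyond their spread, and then Acly at 284 ± 13.6. With the siRNAs Acly came second at 305 ± 11.2, before Sqle at 225 ± 4.73 and Insig1 at 217 ± 5.49, and with both Acly was again second at 322 ± 16.6. The lowest of the tested members in all 3 groups were Idi1 (3.6 to 4.51 FPKM) and Acaca (3.6 to 5.07). Within the sterol branch the order of levels was not the order of the pathway: squalene epoxidase was among the most abundant transcripts, and Idi1, an isomerase that acts before it, was among the rarest.

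Differences between groups were tested on the counts with edgeR's quasi-likelihood test over all 11 libraries and 13343 genes, and a gene was called when its Benjamini-Hochberg adjusted p was under 0.05. Of the members 33 were tested, 22 sterol and 11 fatty acid genes. With control siRNA, EGF raised 16 of the 33 members and lowered none, while of all genes tested 16.8% were called higher and 18.8% lower. Arid1a siRNAs without EGF lowered 15 members and raised 2, where 20.1% of all genes were called lower and 18.8% higher. In the presence of EGF the siRNAs lowered 15 and raised 4, beside 23.2% and 23.7% of all genes. EGF added to Arid1a siRNAs raised 19 members and lowered none, beside 13.0% and 10.4% of all genes. The median change of the 22 sterol genes was 0.22 with EGF and -0.26 with Arid1a siRNAs, and that of the 11 fatty acid genes was 0.19 and -0.075. Over all genes the same medians were -0.028 and -0.0087.

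Split by branch, EGF with control siRNA raised 10 of 22 sterol genes and 6 of 11 fatty acid genes. The siRNAs without EGF lowered 12 sterol genes and raised none, but on the fatty acid branch they lowered 3 and raised 2. Both comparisons are set against the same 2 control libraries. Both EGF responses, with control and with Arid1a siRNAs, share no library: the 10 sterol genes called higher in the first were 83.3% of the 12 called higher in the second, and all 10 were among them. The 2 siRNA responses also share no library, and 11 sterol genes were called lower in both, which is 91.7% of the 12 called without EGF and all of those called with EGF. Every test drew its spread from all 11 libraries, so the calls of such a pair are not independent. The same overlaps over all genes were not counted, so these shares have no background to stand beside. They are not shown to be particular to the sterol genes.

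**Figure D2:**
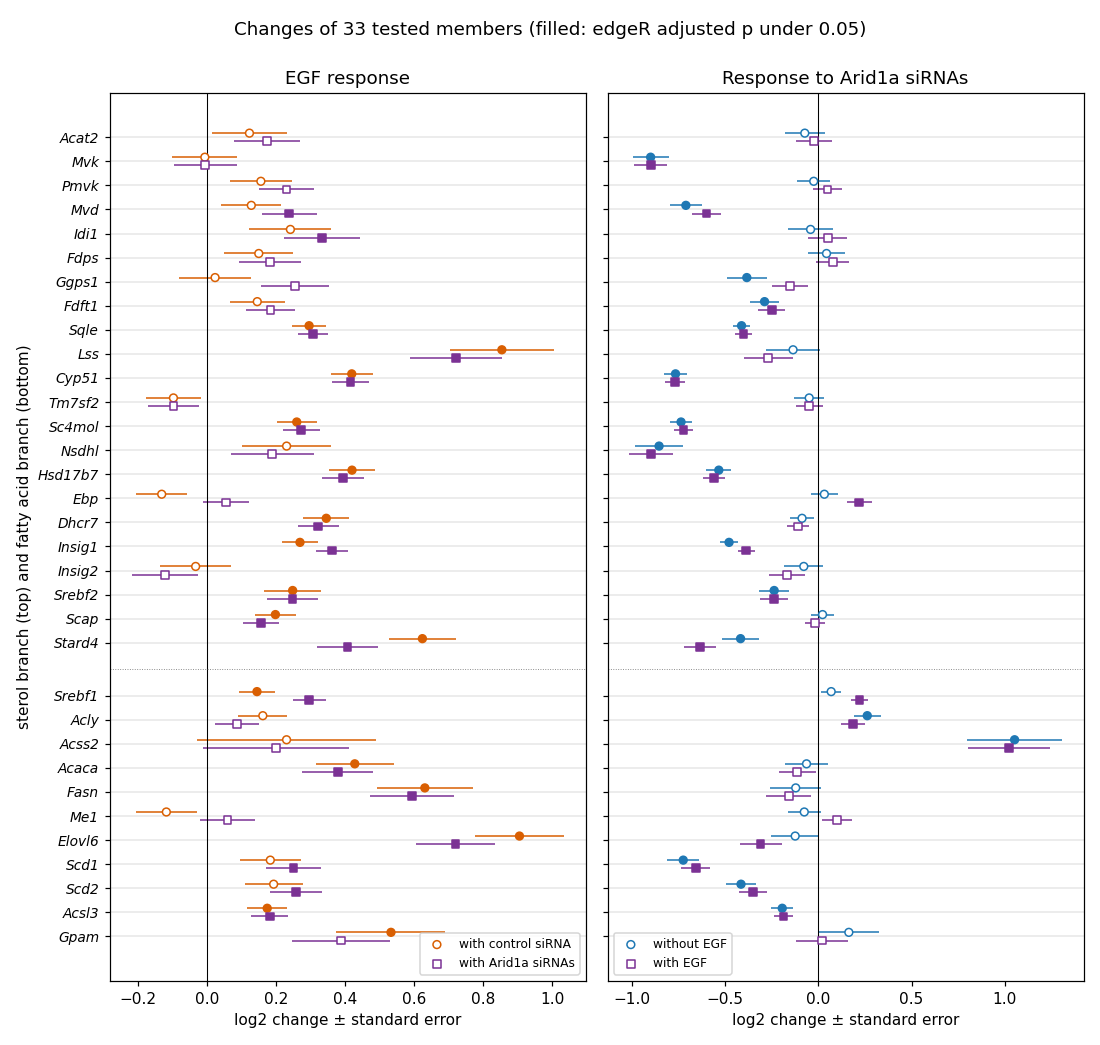
Change on the log2 scale ± SE for the 33 tested members in pathway order, with the EGF responses on the left and the responses to Arid1a siRNAs on the right; filled symbols passed the edgeR test at an adjusted p under 0.05. Most EGF values lie to the right of 0, most sterol values on the siRNA side lie to the left of it, and Acss2 is the member with the largest siRNA rise (1.05 without EGF).

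The first enzymes of the sterol branch make mevalonate. Acat2, the cytosolic thiolase that joins acetyl-CoA units, stood at 196 and 227 CPM in the control libraries, 228, 218 and 246 with EGF, 172, 197 and 234 with Arid1a siRNAs and 222, 218 and 242 with both. Its groups overlapped and it was called in none of the comparisons, and because near copies of it exist in the mouse genome its counts are uncertain. Hmgcs1, the synthase that makes HMG-CoA, was almost absent from the counts, with 0 to 4 reads per library and 11 in all 11 libraries together. It was too low to be tested, and its FPKM values were at most 0.018. Of the neighbours of Hmgcs1 on the chromosome, Nim1k, Zfp131 and AF067063 had no read in any library, and Ccl28 had 3 to 17. On the same stretch Paip1 (933 to 1711 reads), 4833420G17Rik (574 to 1224) and Tmem267 (207 to 476) were counted well. The counts of Hmgcs1 may therefore not reflect its expression, and the reason was not tested. The Hmgcs1 promoter is shown because it alone, of the promoters of 28 members searched, held the sterol regulatory element in the form TCACNCCAC. The match, here in capitals, lies 137 bases before the RefSeq start. The stretch is chr13:119690204-119690232 of GRCm38.p6 on the forward strand.
Hmgcs1: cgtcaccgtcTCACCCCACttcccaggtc

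Of the mevalonate steps, Mvk and Mvd fell with the siRNAs and Pmvk was not called, and none was called for EGF with control siRNA. Mvk, mevalonate kinase, stood at 103 and 115 CPM in the control libraries, 112, 103 and 110.2 with EGF, 55.2, 51.5 and 68.6 with Arid1a siRNAs and 57.3, 57.7 and 59.4 with both. Every library with the siRNAs was below every library without them. Its change with the siRNAs was -0.90 ± 0.096 without EGF (edgeR adjusted p = 6.59e-06) and -0.90 ± 0.088 with EGF (adjusted p = 1.58e-06). Its EGF response was -0.0055 ± 0.094 with a 95% interval of -0.21 to 0.20. Pmvk, the next kinase, was called in none of the comparisons, with 93.3 to 99.6 CPM in control libraries and 86.9 to 109.7 with the siRNAs. Mvd, the decarboxylase that ends the mevalonate part, stood at 129 and 139 CPM in the control libraries, 152, 147 and 141 with EGF, 74.1, 77.2 and 94.3 with Arid1a siRNAs and 94.0, 102 and 93.8 with both. It changed with the siRNAs by -0.71 ± 0.087 without and -0.60 ± 0.079 with EGF. Its rise with EGF on top of the siRNAs (0.24 ± 0.080, adjusted p = 0.0439) was lost when any 1 of EGF replicates 1, 2 and 3, siRNA replicates 1 and 2 or combined replicates 1, 2 and 3 (adjusted p = 0.0552 to 0.185) was left out. The kinase and the decarboxylase thus fell while the kinase between them was not called, and the interval of its change was -0.22 to 0.17.

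Of the isoprenoid steps, Ggps1 and Fdft1 fell with the siRNAs, and none was called for EGF with control siRNA. Idi1, the isopentenyl diphosphate isomerase, was rare at 10.4 to 12.0 CPM in control and 12.2 to 14.6 CPM in combined libraries. It was called only for EGF with Arid1a siRNAs (0.33 ± 0.11, adjusted p = 0.0401), a call lost without any 1 of EGF replicates 1 and 3, siRNA replicates 1 and 3 or combined replicates 2 and 3 (adjusted p = 0.0512 to 0.144). Fdps, farnesyl diphosphate synthase, was called nowhere. Its change with the siRNAs was 0.044 ± 0.10 (95% interval -0.17 to 0.26). Ggps1, which diverts farnesyl diphosphate to protein prenylation, stood at 22.9 and 23.1 CPM in control libraries and 19.8, 16.9 and 16.4 with the siRNAs. It fell by 0.38 ± 0.11 (adjusted p = 0.0109), a call lost without control replicate 1 or siRNA replicate 2 (adjusted p = 0.051 to 0.0542). Fdft1, squalene synthase and the first enzyme committed to sterols, had 279 and 307 CPM in control libraries, 218, 231 and 272 with the siRNAs and 269.9, 279 and 269 with both. It fell by 0.29 ± 0.079 without EGF, which was lost without control replicate 2 or siRNA replicate 1 (adjusted p = 0.0577 to 0.0929). It fell by 0.25 ± 0.071 with EGF.

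From squalene to lanosterol and its first conversions, Sqle and Cyp51 rose with EGF and fell with the siRNAs, Lss rose with EGF only and Tm7sf2 was not called. Sqle, the epoxidase and a rate-limiting step, stood at 844 and 843 CPM in the control libraries, 1039, 1057 and 1012 with EGF, 621, 636 and 646 with Arid1a siRNAs and 793, 791 and 769 with both. The 4 groups did not overlap: EGF libraries were highest, then control, then combined, then siRNA libraries. Sqle rose with EGF by 0.30 ± 0.049 and with the siRNAs fell by 0.41 ± 0.048 (edgeR adjusted p = 0.000257 and 1.39e-05). Lss, which closes squalene epoxide into lanosterol, had 305 and 442 CPM in the control libraries, 709.6, 589 and 725 with EGF, 318, 355 and 346 with Arid1a siRNAs and 584, 486 and 612 with both. The 2 control libraries differed from each other, yet both lay below every library with EGF. Its EGF response, 0.85 ± 0.15 with control siRNA and 0.72 ± 0.13 with Arid1a siRNAs, was the largest of the sterol genes, and its siRNA change was -0.14 ± 0.15 with a 95% interval of -0.46 to 0.19. Cyp51, the lanosterol demethylase, stood at 805 and 872 CPM in the control libraries, 1098, 1089 and 1177 with EGF, 471, 489 and 519 with Arid1a siRNAs and 656, 639.6 and 678 with both. Its groups were apart in the same order as for Sqle. It rose with EGF by 0.42 ± 0.061 (adjusted p = 9.17e-05) and with the siRNAs fell by 0.77 ± 0.060 (adjusted p = 3.72e-07). Tm7sf2, a sterol reductase that acts on the product of Cyp51, was called in none of the comparisons, at 72.3 to 75.2 CPM in control and 65.9 to 78.2 CPM in siRNA libraries.

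The enzymes that remove the methyl groups of lanosterol all fell with the siRNAs, as Cyp51 did, and Sc4mol and Hsd17b7 also rose with EGF. Sc4mol, the methylsterol oxidase now named Msmo1, stood at 304 and 307 CPM in the control libraries, 363, 361 and 373 with EGF, 179, 175 and 197 with Arid1a siRNAs and 217, 227 and 222 with both. It rose by 0.26 ± 0.058 with EGF and fell by 0.74 ± 0.058 with the siRNAs, with no overlap between any of the 4 groups. Nsdhl, the decarboxylating dehydrogenase of the same step, had 148 and 186 CPM in the control libraries, 199, 177 and 212 with EGF, 75.1, 94.4 and 107 with Arid1a siRNAs and 103, 102 and 112 with both. Every siRNA and combined library was below every library without the siRNAs. Nsdhl changed by -0.85 ± 0.13 without and -0.89 ± 0.12 with EGF, and its EGF response was 0.23 ± 0.13 (95% interval -0.051 to 0.51). Hsd17b7, the ketosteroid reductase that completes the step, stood at 114 and 122 CPM in the control libraries, 165, 148 and 161 with EGF, 83.9, 82.8 and 77.9 with Arid1a siRNAs and 107, 103 and 111 with both. It rose by 0.42 ± 0.066 with EGF and fell by 0.53 ± 0.067 with the siRNAs. No call of Sqle, Cyp51, Sc4mol, Nsdhl or Hsd17b7 in these comparisons was lost when any 1 library was left out.

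Neither of the last steps was called lower with the siRNAs. Ebp, the sterol isomerase, had 117, 124 and 123 CPM with EGF and 134, 143 and 147 with both. It was called only in that contrast, where it was higher with the siRNAs by 0.22 ± 0.067 (adjusted p = 0.0141), a call lost without EGF replicate 1 (adjusted p = 0.061). Dhcr7, the reductase that yields cholesterol, stood at 294 and 334 CPM in the control libraries, 413, 385 and 399 with EGF, 277, 298 and 311 with Arid1a siRNAs and 379.7, 359 and 369.8 with both. It rose with EGF by 0.35 ± 0.067 with control and 0.32 ± 0.060 with Arid1a siRNAs. Its change with the siRNAs was -0.087 ± 0.067 (95% interval -0.23 to 0.055), so the top and the end of the lanosterol route, Lss and Dhcr7, shared the EGF rise without a called siRNA fall.

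**Figure D3:**
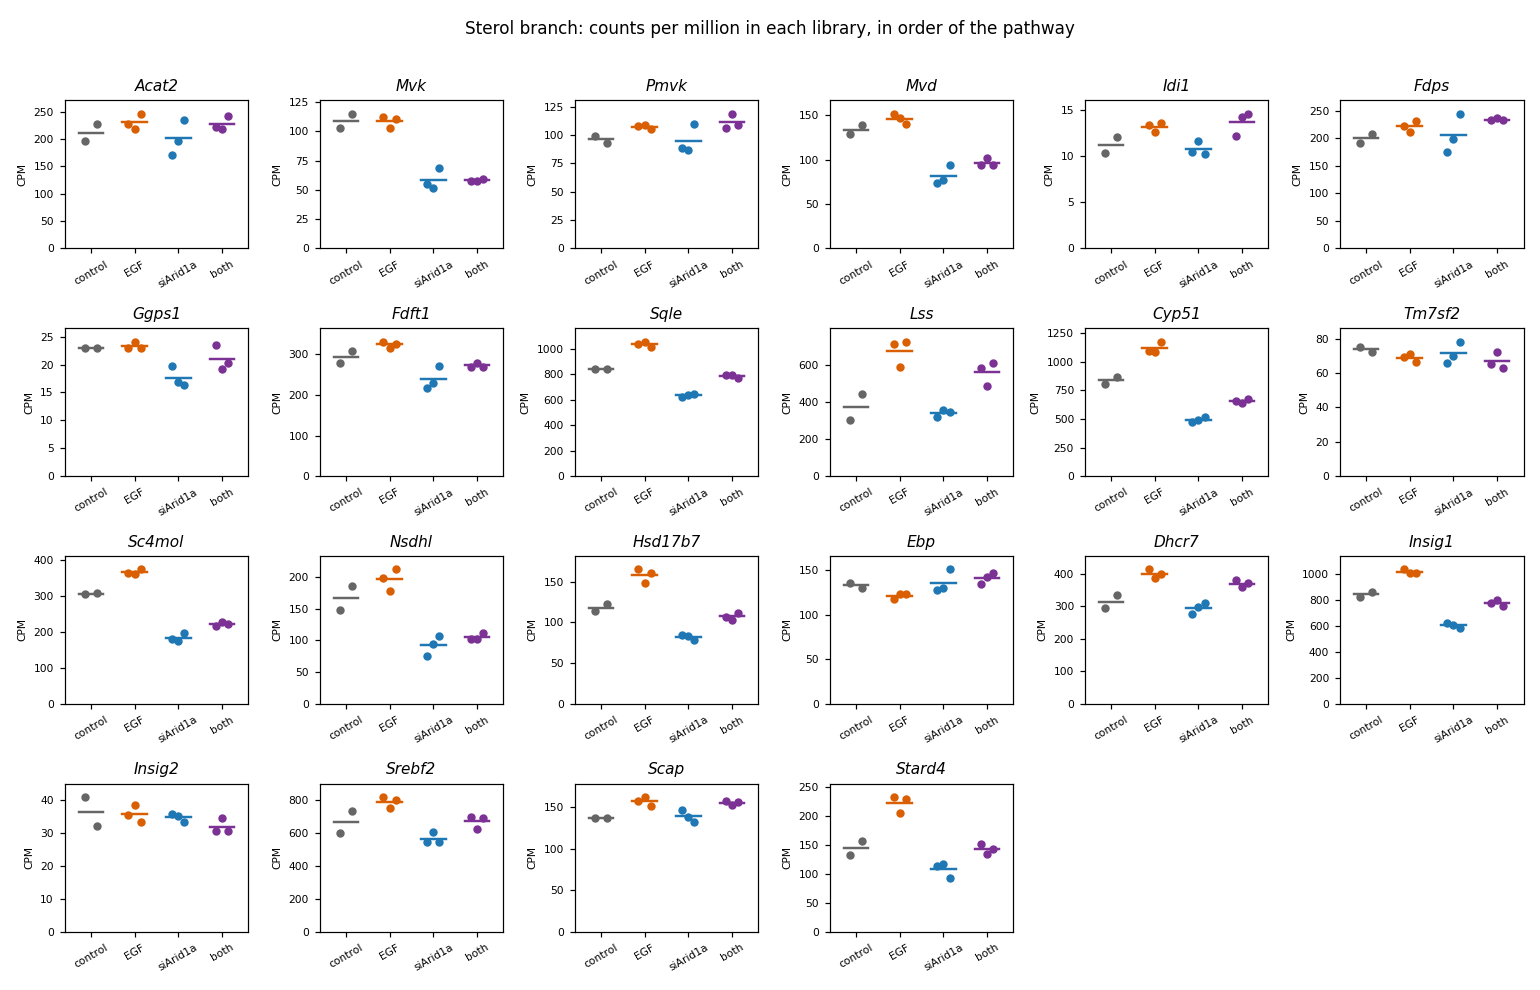
CPM of the 22 tested sterol genes in each library, in pathway order with regulators last; points are libraries, lines are group means and every axis starts at 0 ("siArid1a" is the siRNA group and "both" the combined group). Mvk, Mvd and Nsdhl separate libraries with and without the siRNAs, Lss and Dhcr7 separate libraries with and without EGF, and Sqle, Cyp51 and Sc4mol show 4 separate groups.

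Of the regulators and the carrier of the branch, Srebf2, Insig1 and Stard4 rose with EGF and fell with the siRNAs, Scap rose with EGF only and Insig2 was not called. Srebf2, which encodes SREBP-2, stood at 597 and 733 CPM in the control libraries, 817, 750.5 and 801 with EGF, 544, 604 and 544 with Arid1a siRNAs and 696, 626 and 688 with both. It rose by 0.25 ± 0.083 with EGF (adjusted p = 0.0295) and fell by 0.24 ± 0.082 with the siRNAs (adjusted p = 0.0334), although control and siRNA libraries overlapped. The EGF call was lost without any 1 of control replicate 1 or EGF replicates 1 and 3 (adjusted p = 0.0776 to 0.415), the change being 0.10 without control replicate 1. The siRNA call was lost without any 1 of control replicate 2, siRNA replicates 1 and 3 or combined replicate 3 (adjusted p = 0.0676 to 0.481), the change being -0.083 without control replicate 2. Scap, the SREBP escort, had 137 and 137 CPM in control libraries, 158, 162 and 152 with EGF, 147, 138 and 132 with the siRNAs and 157, 152 and 156 with both. Its rise with EGF (0.20 ± 0.059) was lost without any 1 of control replicates 1 and 2 or EGF replicate 2 (adjusted p = 0.0587 to 0.0835). The smaller rise with Arid1a siRNAs (0.16 ± 0.053) was lost without any 1 of control replicate 1, EGF replicates 1, 2 and 3, siRNA replicates 2 and 3 or combined replicates 1, 2 and 3 (adjusted p = 0.0547 to 0.131). Insig1, a retention protein and itself a target of SREBP, stood at 824 and 857 CPM in the control libraries, 1033, 1004 and 1003 with EGF, 618, 606 and 585 with Arid1a siRNAs and 777, 795 and 755 with both. It rose by 0.27 ± 0.051 with EGF and fell by 0.48 ± 0.050 with the siRNAs, and no library left out ended either call. Insig2, its relative, had 41.0 and 32.1 CPM in the control libraries, 35.6, 38.7 and 33.3 with EGF, 35.8, 35.1 and 33.4 with Arid1a siRNAs and 30.6, 34.5 and 30.7 with both. Its groups overlapped and it was called nowhere. Stard4, a carrier of cholesterol through the cytosol, stood at 132 and 156 CPM in the control libraries, 232, 205 and 228 with EGF, 113, 117 and 93.2 with Arid1a siRNAs and 152, 134 and 143 with both. It rose by 0.62 ± 0.098 with EGF and fell by 0.42 ± 0.097 with the siRNAs, the latter call being lost without control replicate 2 (adjusted p = 0.0522).

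Promoters were read because 15 of the 22 sterol genes were called for EGF with control siRNA or the siRNAs without EGF. The other 7 (31.8%) were called in neither, beside 42.0% of all genes. Of the 15, 7 were called higher with EGF and lower with the siRNAs (31.8% of the 22, beside 4.03% of all genes). RefSeq windows (GRCm38.p6, from 250 bases before to 50 after the start) matched 28 of the 34 members, 19 sterol and 9 fatty acid genes. None was listed for Fdps, Fdft1, Sqle, Stard4, Scd1 or Scd2, so their promoters were not searched. The CCAAT box, searched on both strands as CCAAT or ATTGG, was found in 17 of the 19 sterol promoters (89.5%) and 7 of the 9 fatty acid promoters (77.8%), beside 41.1% of the promoters of 27025 genes. TCACNCCAC, on both strands, was found in 1 sterol promoter (5.26%) and no fatty acid promoter, beside 1.44% of all. The only overlap within a printed stretch is in Fasn, where the 2 readings of the box share letters. The lines below give the 150 bases before the start for members with different responses, with the boxes in capitals. Mvk and Nsdhl fell with the siRNAs only, Cyp51, Srebf2 and Insig1 rose with EGF and fell with the siRNAs, and Lss and Fasn rose with EGF only. They lie at chr5:114444119-114444268 (+), chrX:72918371-72918520 (+), chr5:4104698-4104847 (-), chr15:82147119-82147268 (+), chr5:28071262-28071411 (+), chr10:76531455-76531604 (+) and chr11:120824548-120824697 (-), with the strand in parentheses and each sequence read along it.
Mvk: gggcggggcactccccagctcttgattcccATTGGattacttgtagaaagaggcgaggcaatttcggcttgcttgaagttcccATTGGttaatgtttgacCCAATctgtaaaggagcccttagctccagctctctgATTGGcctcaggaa
Nsdhl: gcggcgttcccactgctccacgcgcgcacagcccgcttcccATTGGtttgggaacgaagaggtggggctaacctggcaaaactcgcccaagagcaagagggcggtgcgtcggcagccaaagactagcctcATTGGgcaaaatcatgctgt
Cyp51: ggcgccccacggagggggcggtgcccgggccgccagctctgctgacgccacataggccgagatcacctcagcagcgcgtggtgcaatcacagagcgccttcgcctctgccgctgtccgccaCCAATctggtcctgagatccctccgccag
Srebf2: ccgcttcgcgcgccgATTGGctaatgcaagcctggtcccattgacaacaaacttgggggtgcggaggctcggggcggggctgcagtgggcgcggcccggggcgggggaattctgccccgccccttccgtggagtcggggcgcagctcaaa
Insig1: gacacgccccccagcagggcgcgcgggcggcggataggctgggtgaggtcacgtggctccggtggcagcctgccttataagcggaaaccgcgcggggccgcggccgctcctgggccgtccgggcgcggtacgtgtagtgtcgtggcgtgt
Lss: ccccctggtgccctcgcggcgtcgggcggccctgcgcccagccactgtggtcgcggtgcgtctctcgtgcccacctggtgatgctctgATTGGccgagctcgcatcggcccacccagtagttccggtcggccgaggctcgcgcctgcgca
Fasn: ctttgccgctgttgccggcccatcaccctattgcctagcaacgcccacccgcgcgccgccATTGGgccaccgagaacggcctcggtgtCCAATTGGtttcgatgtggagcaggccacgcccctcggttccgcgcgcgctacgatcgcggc

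In these 150 bases Mvk had 4 boxes, Fasn 3, Nsdhl 2, Cyp51, Srebf2 and Lss 1 each and Insig1 none, its match lying elsewhere in the longer window. The same stretch of Acaca, which rose with EGF only, held none, nor did its longer window. Only 1 start was listed for Acaca, and whether transcripts in these cells begin there was not tested. Among the other genes called for EGF only, the longer windows of Elovl6 and Scap held no box, and those of Lss, Dhcr7, Srebf1, Fasn and Gpam did. Stretches with and without the box were thus found in 2 of the 3 response types read, for the EGF-only type by Acaca alone. A match is a description of the letters, not of binding.

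On the fatty acid branch the regulator Srebf1 rose with EGF, and the suppliers of acetyl-CoA, Acly and Acss2, rose with the siRNAs. Srebf1, which encodes SREBP-1, stood at 660.0 and 660.3 CPM in the control libraries, 752, 732 and 706 with EGF, 662, 708 and 707 with Arid1a siRNAs and 862, 863 and 828 with both. It rose by 0.15 ± 0.053 with EGF and control siRNA (adjusted p = 0.0445), a call lost without any 1 of control replicates 1 and 2, EGF replicates 1 and 2 or combined replicates 1 and 3 (adjusted p = 0.0516 to 0.153). It rose more clearly with EGF and Arid1a siRNAs (0.30 ± 0.047, adjusted p = 0.00037), and in the presence of EGF it was higher with the siRNAs by 0.22 ± 0.047. Acly, which splits citrate into acetyl-CoA, had 1088 and 1275 CPM in the control libraries, 1363, 1255 and 1347 with EGF, 1397, 1482 and 1369 with Arid1a siRNAs and 1566, 1417 and 1529 with both. It was higher with the siRNAs by 0.26 ± 0.071 without EGF, 0.16 without control replicate 1 and no longer called (adjusted p = 0.148), and by 0.19 ± 0.063 with EGF, lost without any 1 of EGF replicate 2 or combined replicates 1 and 3 (adjusted p = 0.0759 to 0.11). Acss2, which makes acetyl-CoA from acetate, stood at 11.9 and 21.3 CPM in the control libraries, 19.2, 15.5 and 23.1 with EGF, 28.2, 34.6 and 38.5 with Arid1a siRNAs and 41.6, 30.6 and 44.7 with both. The control libraries differed from each other, and both were below every library with the siRNAs. Acss2 rose by 1.05 ± 0.25 with the siRNAs without EGF, 0.67 without control replicate 1 and no longer called (adjusted p = 0.0702), and by 1.02 ± 0.22 with EGF (adjusted p = 0.00265).

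The synthesis and elongation steps rose with EGF. Acaca, acetyl-CoA carboxylase, stood at 32.6 and 41.6 CPM in the control libraries, 53.2, 43.8 and 52.3 with EGF, 32.8, 37.1 and 35.8 with Arid1a siRNAs and 46.3, 42.4 and 49.2 with both. It rose by 0.43 ± 0.11 with control siRNA, 0.25 without control replicate 1 and no longer called (adjusted p = 0.156), and by 0.38 ± 0.10 with Arid1a siRNAs, lost without siRNA replicate 1 or combined replicate 3 (adjusted p = 0.0773 to 0.0802). Fasn, fatty acid synthase, had 857 and 1215 CPM in the control libraries, 1739.7, 1459.8 and 1613 with EGF, 909, 1037 and 909 with Arid1a siRNAs and 1536, 1266 and 1511 with both. The control libraries were far apart, and the EGF libraries were above both. Fasn rose by 0.63 ± 0.14 (adjusted p = 0.00407, and 0.40 without control replicate 1) with control siRNA and 0.59 ± 0.12 with Arid1a siRNAs, and its siRNA change was -0.12 ± 0.14 (95% interval -0.42 to 0.18). Elovl6, which elongates the product of Fasn, stood at 90.8 and 123 CPM in the control libraries, 209.8, 183 and 206 with EGF, 90.2, 107 and 95.2 with Arid1a siRNAs and 172, 139 and 172 with both. It showed the largest EGF response of all 33 members, 0.91 ± 0.13 with control and 0.72 ± 0.12 with Arid1a siRNAs. With EGF it was lower with the siRNAs (-0.31 ± 0.11), a call lost without any 1 of EGF replicates 1 and 3, siRNA replicates 1, 2 and 3 or combined replicates 2 and 3 (adjusted p = 0.0507 to 0.136). Me1, the cytosolic malic enzyme that supplies NADPH, was called nowhere, at 25.6 to 27.0 CPM in control and 23.8 to 25.2 CPM in EGF libraries.

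The desaturases fell with the siRNAs. Scd1 stood at 873 and 1068 CPM in the control libraries, 1129, 1004 and 1176 with EGF, 573, 603 and 586 with Arid1a siRNAs and 699, 647 and 752 with both. Every library with the siRNAs was below every library without them. It changed by -0.72 ± 0.087 without EGF and -0.66 ± 0.079 with EGF. Scd2, the more abundant paralog, had 3978 and 4919 CPM in the control libraries, 5202, 4739 and 5321 with EGF, 3183, 3473 and 3356 with Arid1a siRNAs and 4046, 3726 and 4209 with both. It changed by -0.41 ± 0.083 without EGF (-0.25 without control replicate 2) and -0.35 ± 0.075 with EGF. The paralogs resemble each other in sequence, so counting may have split reads between them and each value is uncertain. EGF raised both on top of the siRNAs, by 0.25 ± 0.079 and 0.26 ± 0.075. The first of these calls was lost without any 1 of siRNA replicates 1, 2 and 3 or combined replicates 1 and 3 (adjusted p = 0.0727 to 0.165) and the second without any 1 of siRNA replicates 1 and 3 or combined replicates 1 and 3 (adjusted p = 0.0517 to 0.114).

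The activating and esterifying steps, Acsl3 and Gpam, both rose with EGF with control siRNA. Acsl3, an acyl-CoA synthetase, stood at 138 and 129 CPM in the control libraries, 149.7, 157 and 146 with EGF, 115, 116 and 120.2 with Arid1a siRNAs and 135, 133 and 131 with both. It was the one fatty acid gene called higher with EGF (0.18 ± 0.058) and lower with the siRNAs (-0.19 ± 0.058). The EGF call was lost without any 1 of control replicate 2 or EGF replicates 1 and 2 (adjusted p = 0.0591 to 0.196), and the siRNA call without any 1 of control replicate 1 or siRNA replicates 1 and 2 (adjusted p = 0.0594 to 0.168). Gpam, the mitochondrial acyltransferase that starts glycerolipid synthesis, had 38.2 and 42.8 CPM in the control libraries, 63.5, 53.8 and 58.3 with EGF, 46.4, 53.3 and 35.3 with Arid1a siRNAs and 64.7, 48.6 and 64.6 with both. It rose with EGF by 0.53 ± 0.16, lost without control replicate 1 or EGF replicate 1 (adjusted p = 0.0603 to 0.16), and its change with the siRNAs was 0.16 ± 0.16 (95% interval -0.18 to 0.51).

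**Figure D4:**
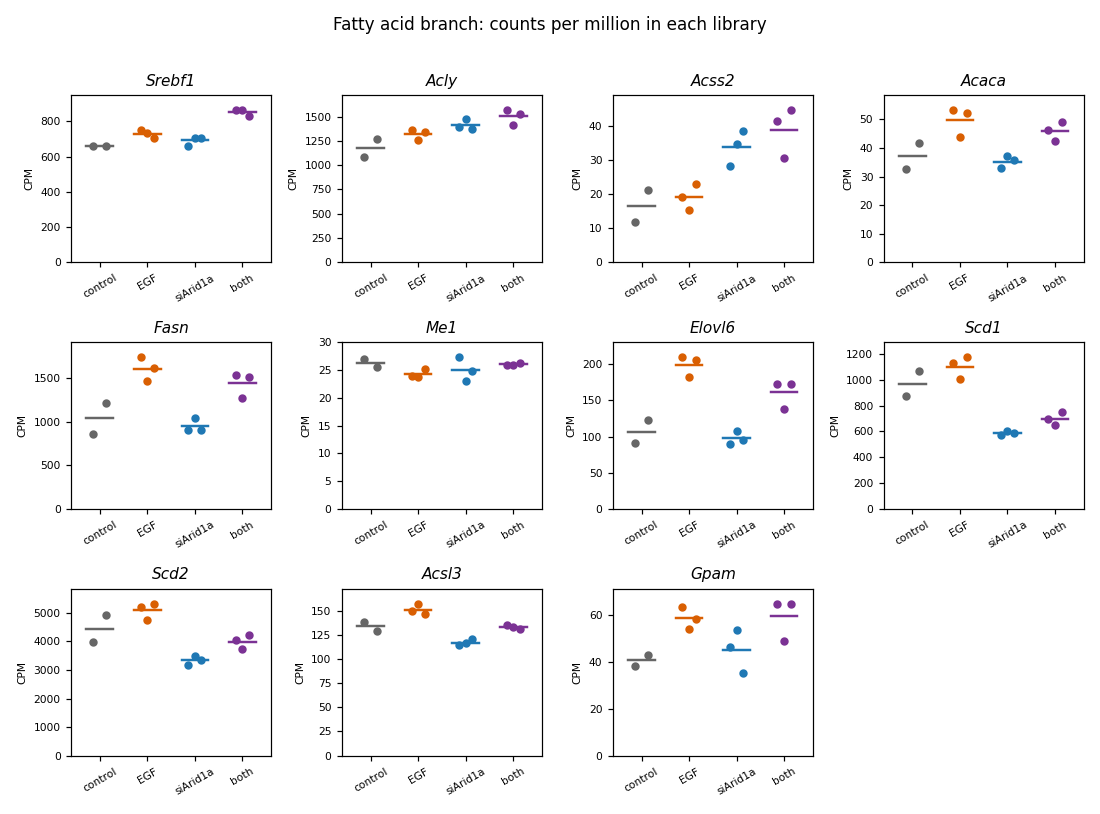
CPM of the 11 fatty acid genes in each library; points are libraries, lines are group means and every axis starts at 0 ("siArid1a" is the siRNA group and "both" the combined group). Elovl6 and Fasn are higher in libraries with EGF, Scd1 is lower and Acss2 higher in libraries with the siRNAs, and the 2 control libraries are far apart for Fasn (857 and 1215 CPM).

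Arranged by both responses, 8 of the 33 members (24.2%) were called higher with EGF and lower with the siRNAs: Sqle, Cyp51, Sc4mol, Hsd17b7, Insig1, Srebf2, Stard4 and Acsl3. Of all genes tested 4.03% had this pair of calls and 5.26% the reverse pair. The members were chosen with earlier results of these data known, so their larger share is not a test. The 2 comparisons share the control libraries, whose deviations shift both changes the same way. Another 8 were called higher with EGF only (Lss, Dhcr7, Scap, Srebf1, Acaca, Fasn, Elovl6 and Gpam) and 7 lower with the siRNAs only (Mvk, Mvd, Ggps1, Fdft1, Nsdhl, Scd1 and Scd2), beside 9.81% and 11.8% of all genes. Acly and Acss2 were called higher with the siRNAs only (10.6% of all genes), and 8 members were called in neither comparison (42.0% of all genes). No member was called higher in both comparisons (2.92% of all genes), lower in both (4.27%) or lower with EGF only (9.26%). A call in one comparison and not in the other does not show that the responses of 2 genes differ, and differences between genes were not tested.

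The combined treatment was set against the control libraries to see where the opposition left each gene. Arid1a siRNAs with EGF raised 10 of the 33 members and lowered 6 relative to neither treatment, beside 22.0% and 21.3% of all genes. On the sterol branch 3 were higher (13.6%) and 5 lower (22.7%), shares below and near those of all genes. On the fatty acid branch 7 were higher (63.6%) and 1 lower (9.09%). Of the 8 opposed members, Cyp51 (-0.35 ± 0.060) and Sc4mol (-0.46 ± 0.058) stayed below control, and the other 6 were not called. Of these 6, Sqle (-0.11 ± 0.048, 95% interval -0.21 to -0.002), Insig1 (-0.12 ± 0.050, -0.22 to -0.0081) and Hsd17b7 (-0.14 ± 0.066, -0.28 to 0.0032) had every combined library below both control libraries, with adjusted p = 0.0928, 0.0774 and 0.106. Srebf2 (0.012 ± 0.082, -0.16 to 0.19), Stard4 (-0.0094 ± 0.097, -0.22 to 0.20) and Acsl3 (-0.011 ± 0.058, -0.14 to 0.11) had changes nearer 0. Mvk (-0.90 ± 0.096), Nsdhl (-0.66 ± 0.13), Mvd (-0.47 ± 0.087) and Scd1 (-0.47 ± 0.087) were lower, as with the siRNAs alone. All 8 members called for EGF only were higher, led by Elovl6 (0.60 ± 0.13), Lss (0.59 ± 0.15), Gpam (0.55 ± 0.16) and Fasn (0.47 ± 0.14), and Acss2 (1.25 ± 0.25) and Acly (0.35 ± 0.072) were higher too. This comparison shares the control libraries with the EGF and siRNA comparisons. Without control replicate 1 the sterol genes called fell from 8 to 5, all of them lower, and the calls of Lss, Dhcr7, Scap, Acaca, Fasn and Gpam were lost (adjusted p = 0.0656 for Lss and 0.404 for Acaca). Without it the changes were 0.34 for Lss, 0.15 for Dhcr7, 0.14 for Acaca, 0.24 for Fasn and 0.39 for Elovl6. Scap was also lost without control replicate 2 or combined replicate 1, and Acaca without combined replicate 1 or 3. Without control replicate 2 the changes of Acaca and Fasn were 0.50 and 0.75.

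**Figure D5:**
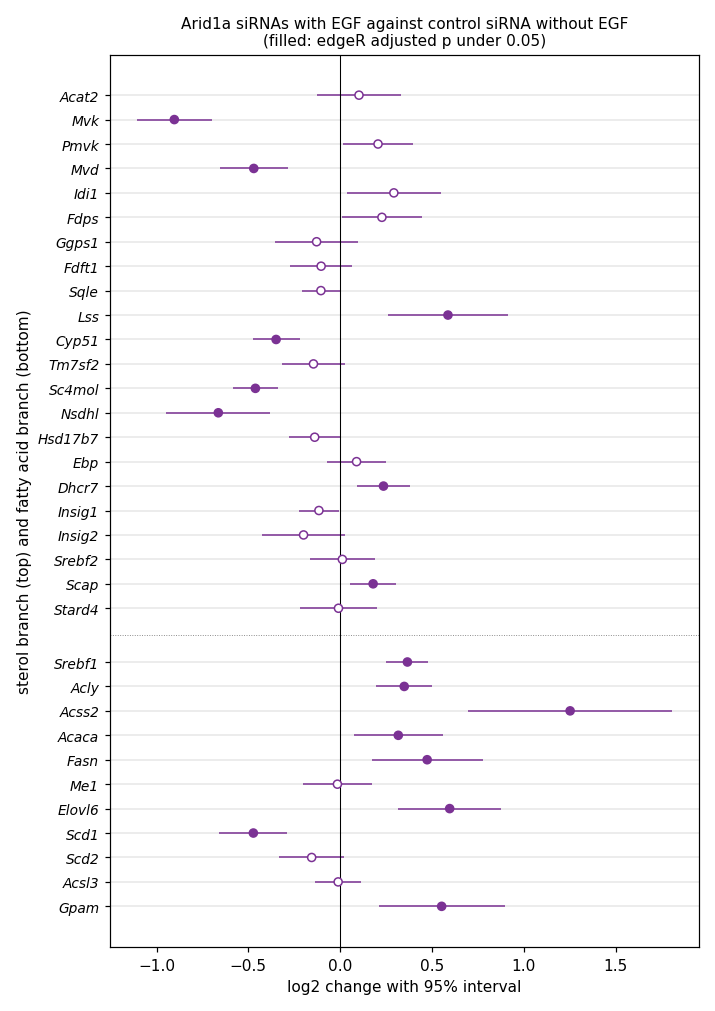
Change on the log2 scale with its 95% interval for Arid1a siRNAs with EGF against control siRNA without EGF, for the 33 tested members; filled points passed the edgeR test at an adjusted p under 0.05. Mvk lies lowest (-0.90) and Acss2 highest (1.25), and fatty acid genes lie mostly to the right of 0.

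Whether the EGF response itself depended on the siRNAs was tested as an interaction, the EGF response with Arid1a siRNAs minus that with control siRNA. None of the 33 members was called by edgeR, DESeq2 or limma-voom, beside 0.562% of all genes called higher and 0.382% lower by edgeR. At an unadjusted p under 0.05 edgeR had 1 member, DESeq2 0 and limma-voom 1. The 1 in edgeR was Srebf1 at 0.15 ± 0.071 (adjusted p = 0.51), chosen for mention after its value was seen. The 2 EGF responses of Cyp51 differed by -0.0036 with a 95% interval of -0.18 to 0.17, and those of Sqle by 0.010 with -0.13 to 0.15. For genes that varied more the limits are wide, as for Acss2 (-0.76 to 0.70) and Lss (-0.56 to 0.30). A call that was missed does not show that the responses were alike. For Dusp6 the same contrast was called, at -0.94 ± 0.11.

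Member values also moved with single libraries. Control replicate 2 was above replicate 1 for 17 of 22 sterol genes and 9 of 11 fatty acid genes, beside 49.0% of all genes. EGF replicate 2 was the lowest of its group for 13 of 22 and 9 of 11, beside 35.1% of all genes, and combined replicate 2 for 10 of 22 and 9 of 11, beside 39.3%. Among the 33 members the widest ratios within the control pair were those of Acss2 (11.9 and 21.3 CPM), Lss (305 and 442) and Fasn (857 and 1215).

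Genes around the 2 branches were taken from fixed lists, whose counts stand beside 16.8% of all genes called higher and 18.8% lower for EGF with control siRNA, and 18.8% higher and 20.1% lower for the siRNAs without EGF. Of 7 other sterol synthesis genes tested, EGF with control siRNA raised 4 and lowered none, and the siRNAs without EGF raised 2 and lowered 2. Tmem97, an endoplasmic reticulum protein of sterol handling, was one that rose with the siRNAs (0.24 ± 0.079), a call lost without control replicate 2 or siRNA replicate 3 (adjusted p = 0.0872 to 0.13). Of 19 genes of isoprenoid side branches, EGF raised 5 (26.3%) and lowered 1 (5.26%). They include Pdss1 (0.55 ± 0.094) and Coq5 (0.32 ± 0.064), which serve ubiquinone synthesis, and Nus1 (0.35 ± 0.052), a subunit of the dolichol enzyme. The siRNAs raised 1 of the 19, Coq2 (0.32 ± 0.12), and lowered 1, Icmt (-0.19 ± 0.053). Coq2 was lost without any 1 of control replicates 1 and 2, EGF replicate 2, siRNA replicate 3 or combined replicate 1 (adjusted p = 0.0507 to 0.141), and Icmt without control replicate 2 (adjusted p = 0.0701). Of 20 genes of sterol uptake, esterification and export, EGF raised 3 and lowered 4, and the siRNAs raised 5 and lowered 4, shares of 15% and 20%, and 25% and 20%, near those of all genes. Npc2, which moves cholesterol out of lysosomes, fell with the siRNAs (-1.05 ± 0.076), and Osbpl2 fell by 0.40 ± 0.063. Soat1, which esterifies cholesterol, rose by 0.44 ± 0.073, and Abcg1, a sterol exporter, fell with EGF (-0.58 ± 0.12).

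Of 20 genes that process or turn over SREBPs, EGF raised 4 (20%, beside 16.8% of all genes) and lowered 1 (5%, beside 18.8%), and the siRNAs raised 3 and lowered 3 (15% each, beside 18.8% and 20.1%). Erlin1, a membrane protein of the degradation machinery, rose with EGF (0.96 ± 0.075) and with the siRNAs (0.52 ± 0.076). Lpin1 rose with EGF by 0.59 ± 0.092. Rnf145, a ubiquitin ligase, fell with the siRNAs (-0.40 ± 0.071). Of the NF-Y subunits, Nfyb fell with EGF (-0.32 ± 0.064) and Nfya with the siRNAs (-0.37 ± 0.11), the latter lost without control replicate 2 or siRNA replicate 1 (adjusted p = 0.104 to 0.296) and -0.16 without control replicate 2.

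Of 27 further genes of fatty acid synthesis and desaturation, EGF raised 11 (40.7%, beside 16.8% of all genes) and lowered 3 (11.1%, beside 18.8%), and the siRNAs raised 2 (7.41%, beside 18.8%) and lowered 8 (29.6%, beside 20.1%). Acsl5, an acyl-CoA synthetase like Acsl3, rose with EGF by 0.90 ± 0.069 and fell with the siRNAs (-0.83 ± 0.070). Hsd17b12, the reductase that works with Elovl6 in elongation, rose with EGF by 0.91 ± 0.071. Acacb, the carboxylase of the mitochondrial surface, fell with EGF (-1.09 ± 0.10), opposite to Acaca. Mlx, the partner of the carbohydrate-responsive factor ChREBP, rose with EGF (0.29 ± 0.068) and fell with the siRNAs (-1.20 ± 0.072). Slc25a1, which exports the citrate that Acly splits, rose with both (0.26 ± 0.059 and 0.58 ± 0.059). Of 21 glycerolipid genes, EGF raised 2, Lpin3 (0.75 ± 0.10) and Agpat5 (0.50 ± 0.098), and lowered none (9.52% and 0%). The siRNAs raised 8 (38.1%, beside 18.8% of all genes), among them Ptdss2 (0.29 ± 0.065), and lowered 3 (14.3%, beside 20.1%), among them Agpat6 (-1.14 ± 0.068), an acyltransferase of the same reaction as Gpam. Of 10 NADPH genes, EGF raised 3 (30%) and lowered 4 (40%), and the siRNAs raised 3 (30%) and lowered 2 (20%). Me2 rose with EGF (0.47 ± 0.060), Me3 fell with EGF (-1.23 ± 0.18) and rose with the siRNAs (0.74 ± 0.16), Idh2 fell with both (-0.35 ± 0.051 and -0.31 ± 0.051), and Nadk rose with both (0.25 ± 0.055 and 0.27 ± 0.055).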

How the data were processed

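Polyadenylated RNA of 11 libraries in 4 groups was prepared with a kit that does not mark strand, so reads of a gene and of an antisense partner cannot be told apart. Per the submitters' processing notes, the authors used TopHat2 2.1.1, HTSeq 0.9.1, Cuffnorm 2.2.1.2 and Cuffdiff 2.2.1.5 with build mm9. The deposited tables hold raw read counts per gene symbol for each library, and the annotation and counting settings are not given in the sources used here. The deposited FPKM table holds values by the authors, whose normalisation the sources used here do not describe. The 9 columns of the EGF, siRNA and combined groups were used, and 3 control columns were not, because they could not be matched to 2 control libraries. No coordinate of the counted genes is given, since the reference is of another build; promoter sequences and their coordinates are from RefSeq (GRCm38.p6).

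Counts were analysed in R 4.3.3 with edgeR 4.0.16 (filterByExpr with a minimum count of 10 and a minimum total of 15, which kept 13343 genes and 99.96% of reads; TMM factors; robust quasi-likelihood fit of 4 group means). CPM were computed from the library totals multiplied by the TMM factors. The 6 contrasts were the EGF response under each siRNA, the siRNA response without and with EGF, both treatments against neither, and the interaction. Tests were two-sided, with Benjamini-Hochberg adjustment over all genes and a threshold of 0.05, and the test was checked on simulated data. The SE is the size of the log2 change divided by the square root of F. Alternatives were RLE and upper-quartile factors, no filter, DESeq2 1.42.0, limma-voom (limma 3.58.1), only the groups compared, each library left out, a replicate block, and limma on log2(FPKM + 0.1). Read totals per library give the depth, and no 2 libraries of a group were copies: their chi-square divided by its degrees of freedom lay between 1.565 and 10.88 (genes of at least 20 reads).

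Every member is accounted for. Library values are given for the regulators and for members called in both EGF with control siRNA and Arid1a siRNAs without EGF, and for other members that the steps turn on. From each further list the called genes with the 3 smallest p in those comparisons are named. Some genes that meet this rule are not reported here. The members and lists were chosen with earlier results of these data known. Replicate numbers come from the sample labels. Same-number libraries of the EGF and combined groups deviated together (correlations 0.1395, 0.3031 and 0.1294), whereas those of the siRNA and combined groups did not (0.04352, -0.3023 and -0.111). Different-number pairs of the EGF and combined groups had correlations of -0.1878 to 0.06503. Control replicate 1, however, deviated together with EGF replicate 2 (0.3811) and combined replicate 2 (0.379). Deviations were taken from the group mean, so those of the 2 control libraries mirror each other. Control replicate 2 therefore gave the same values with the opposite sign, which adds nothing separate. The correlations therefore do not show that the numbers pair libraries.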

Additional observations from a re-analysis of the deposited data

Results flagged for a closer look

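The EGF response of 3 genes outside the 2 branches differed between siRNAs by the interaction test of edgeR. For Dusp6, the ERK-induced phosphatase, the difference was -0.936 on the log2 scale (adjusted p = 0.00149), and no alternative ended the call. For Acsl5, the acyl-CoA synthetase, it was -0.435 (adjusted p = 0.0446), with an EGF rise of 0.90 with control siRNA and 0.47 with Arid1a siRNAs, and 10 of 17 alternatives ended the call. For Acacb, the mitochondrial carboxylase, it was 0.638 (adjusted p = 0.0471), with an EGF fall in both settings (-1.09 and -0.45), and 14 of 17 alternatives ended the call. Among all genes tested, 0.562% were called higher and 0.382% lower in this contrast.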

How the results depend on the processing

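No called member change reversed its sign under any of the 19 alternatives. Of the 87 member calls, 0 (limma-voom) to 7 were lost under the other normalisations, filters and tools. Between 5 and 16 were lost when 1 library was left out, the most without control replicate 1, which leaves that group with 1 library assumed to vary like the others. Leaving out 1 library moved the sterol genes called between 8 and 11 (10 as reported) for EGF with control siRNA, 9 and 12 (12) and 10 and 13 (12) for the siRNAs without and with EGF, 8 and 13 (12) for EGF with the siRNAs, and 5 and 11 (8) for both against neither. On the fatty acid branch the ranges were 3 to 7 (6), 3 to 5 (5), 5 to 7 (7), 3 to 8 (7) and 6 to 8 (8) in the same order. The count of 3 for EGF with control siRNA arose without control replicate 1 and without EGF replicate 1. For the siRNAs without EGF it was 3 without control replicate 1, all of them lower. For EGF with the siRNAs it was 3 without siRNA replicate 1 and 4 without combined replicate 1 or 3. The cause was not tested. The interaction kept 0 members under every alternative that gave it.

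With the replicate number as a block, 12 of the 87 calls were lost and none gained. Whether the numbers pair libraries is not known. Between the EGF and combined groups, the block ended the edgeR calls of Acly (0.19, adjusted p = 0.0512) and Elovl6 (-0.31, adjusted p = 0.0573). It changed no other member call in that comparison, so 12 sterol and 5 fatty acid genes were called. In the other comparisons the blocked counts were 9, 11, 8, 8 and 0 sterol genes and 4, 5, 6, 7 and 0 fatty acid genes (EGF with control siRNA, siRNAs without EGF, EGF with siRNAs, both against neither, interaction). What a shared number stands for was not tested. Upper-quartile factors raised the share of called genes that were higher with the siRNAs without EGF from 48.3% to 60.7%, and 7 member calls were lost. The promoter count of the sterol element was 1 in the shorter window and for the stricter form too. Idi1, Acss2 and Acaca are rare, which limits their precision, and Hmgcs1 was not tested.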
